A study of Gallus gallus with 8 samples.

Results

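WDR81 and NOL8 are 2 genes of the chick. The reads of the transcripts matched to them here are close to 0 in the distal wing bud at HH24 and well above 0 in the other groups used here. By sums that add transcripts without a gene name, given below, reads at HH24 were not close to 0. Both genes were chosen by the reads of their matched transcripts in HH24 against HH27 and HH24g. Their difference from HH24 is therefore given as a description with no test. Transcript accessions of RefSeq, the reference collection of the NCBI, were matched to gene symbols after removal of the version number. In this way 5 of 57399 transcripts in the files were assigned to these 2 of 14612 matched genes, 4 to WDR81 and 1 to NOL8. Whether their reads moved between transcripts or the gene itself changed can be asked from the values of every transcript.

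WDR81 encodes a large protein with a BEACH domain and WD40 repeats. In human cells and in worms it works with WDR91 to hold back the class III phosphatidylinositol 3-kinase on endosomes, the vesicles through which cargo reaches the lysosome, and it takes part in the clearance of protein aggregates with SQSTM1 (p62). NOL8 encodes an RNA-binding protein of the nucleolus that is needed for the assembly of ribosomes, and its counterpart in yeast, Nop8, acts in the making of the large ribosomal subunit. Both processes run in most cell types, and neither gene is a classical marker of a limb territory.

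Stages are those of Hamburger and Hamilton (HH). HH24g (2 libraries) is mesoderm of GFP-transgenic HH20 wing buds, taken as a strip of 150 µm with the epithelium removed, cut into cubes, set beneath the apical ridge of an HH24 wild type wing and recovered 24 h later. HH27 (3 libraries) is the matching distal wing bud mesenchyme of wild type, ungrafted wings, which the study took from the contralateral side of the hosts. HH24 (3 libraries) is the same tissue from other wild type embryos at the age of the grafted cells. GFP is driven by a CMV promoter in the donors, eggs of all groups were kept at 37 °C, and several pieces of tissue were pooled for each library, so p-values measure the spread between pools. The labels name no batch, and stage cannot be told apart from a separate handling of the HH24 libraries.

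The values are estimated reads, which the Salmon program shares out among transcripts that have sequence in common, so that a single transcript need not hold a whole number. The libraries held between 1697272 and 5095662 estimated reads. Transcripts matched to genes took 67.6% and 61.6% of these in HH24g, 66.2%, 51.9% and 64.3% in HH27, and 45.5%, 9.24% and 53.3% in HH24. A single transcript, to which no gene is assigned here, took 8.62% to 15.2% of the reads in HH24g, 10.2% to 26.1% in HH27 and 24.2% to 74.3% in HH24, with the highest share in HH24 replicate 2. All 16 genes listed for distal limb mesenchyme were detected, with a summed level of 2664 to 2730 CPM in HH24g, 2532 to 2830 CPM in HH27 and 3131 to 3500 CPM in HH24. CPM are counts per 1000000 reads in matched genes after TMM scaling, which sets aside the part of a library taken by a few abundant genes.

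The transcripts matched to WDR81 were nearly without reads at HH24. Summed over all 4, WDR81 had 83.7 and 159 estimated reads in HH24g, 145, 64.0 and 210 in HH27, and 0.0225, 0.0143 and 0.0239 in HH24. The groups HH24g and HH27 lay far above HH24, with no overlap, which the choice of these genes used, and 7.01% of all genes tested were lower in HH24 without overlap. At the mean level of HH27, 53.7, 7.37 and 58.7 reads would have fallen on WDR81 in HH24 replicates 1 to 3, so HH24 replicate 2 could carry few reads of the gene at its depth. The level was 45.3 ± 4.70 CPM in HH24g (SD, n = 2) and 57.4 ± 4.13 CPM in HH27 (SD, n = 3), and it was 0 CPM in each HH24 library once reads were rounded to whole numbers. In TPM, the length-corrected share per 1000000 transcripts in the deposited tables, WDR81 had 5.82 and 5.41 in HH24g, 7.01, 5.55 and 6.93 in HH27, and 0.00113, 0.000349 and 0.00152 in HH24.

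A fold change against HH24 can be given for these WDR81 transcripts as a lower bound, set by the 3 reads that a count of 0 allows in a library. With the highest such floor of 23.4 CPM, in HH24 replicate 2, WDR81 was at least 1.93-fold higher in HH24g and at least 2.46-fold higher in HH27 than in HH24. Without HH24 replicate 2 the highest floor was 3.21 CPM, and the bounds were at least 14.1-fold for HH24g and at least 17.9-fold for HH27. These floors cover counting error only.

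The transcript matched to NOL8, XM_004944506.2 (4259 nt), was also low at HH24, though less evenly. NOL8 had 158 and 290 estimated reads in HH24g, 190, 79.1 and 272 in HH27, and 1.17e-08, 2.09 and 5.95 in HH24. The level was 83.7 ± 6.88 CPM in HH24g (SD, n = 2), 73.4 ± 3.08 CPM in HH27 (SD, n = 3) and 7.15 ± 7.88 CPM in HH24 (SD, n = 3). In TPM it was 19.2 and 17.2 in HH24g, 16.0, 11.9 and 15.6 in HH27, and 1.02e-09, 0.0886 and 0.659 in HH24. The HH24 libraries again lay below all others, and HH24 replicate 2 was the highest of the 3 in CPM, with 15.6 CPM from 2 rounded reads. On the log2 scale NOL8 was higher than HH24 by 5.08 ± 0.87 (SE) in HH24g and by 4.86 ± 0.87 (SE) in HH27. Without HH24 replicate 1, where it was at 0, these differences were 3.62 in HH24g and 3.40 in HH27.

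Between HH24g and HH27 neither gene was called, a call being an adjusted p under 0.05 with a log2 fold change beyond 1. The genes were chosen as higher in HH24g and HH27 than in HH24, so this contrast is not fully independent of the choice. WDR81 differed by -0.30 ± 0.13 (SE, 95% interval -0.59 to -0.01, adjusted p = 0.277, limma voom with Benjamini-Hochberg adjustment), and every HH24g library lay below every HH27 library, as for 16.4% of all genes tested. NOL8 differed by 0.21 ± 0.15 (SE, 95% interval -0.14 to 0.56, adjusted p = 0.541, limma voom with Benjamini-Hochberg adjustment), with every HH24g library above every HH27 library, as for 16.3%. Of 9062 genes tested, 1.71% were called in this contrast, against 0 of these 2. At an unadjusted p under 0.05 WDR81 passed by limma voom and NOL8 did not, and edgeR and DESeq2 called neither. The SE and intervals rest on a spread estimated over all groups, including the HH24 libraries used for the choice. With DESeq2 the WDR81 difference was -0.32 ± 0.24 (SE). The WDR81 sum also leaves out reads of HH24g replicate 1 on a transcript without a gene name. With that transcript the difference was -0.00, as given below. The contrasts with HH24 were used for the choice, and nothing is read from their calls: 2 of 2 in HH27 against HH24, where 1.07% of all genes were called, and 0 of 2 in HH24g against HH24, where 0.011% were. Each pair of contrasts shares the libraries of 1 group.

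The gene table names 6 accessions for WDR81 and 13 for NOL8, of which 4 and 1 are in the files, and 46.4% of all transcripts in the files matched a gene. Reads of a gene can therefore sit on transcripts that were given no gene name. When estimated reads are shared out within a closed set of transcripts, those of the whole set must add up to a whole number. Over the 4 matched WDR81 transcripts the sum was whole, within 0.01 of a read, in 2 of 8 libraries. For the NOL8 transcript it was whole in 1 of 8, at 0 in HH24 replicate 1.

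For WDR81, 1 added transcript closed the sum. With XM_015296036.1 (7219 nt), which is not in the gene table, the reads summed to a whole number in 8 of 8 libraries, with a largest distance of 0.000296 reads. Each of the 57399 transcripts was tried in turn, and this was the 1 transcript that closed the sum in all libraries. Its length is close to the 7276 to 7388 nt of the matched WDR81 transcripts. These transcripts are called the WDR81 read-sharing set below, and no gene is assigned to the added transcript: transcripts that share reads have sequence in common, which does not by itself make them transcripts of 1 gene.

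For NOL8, no single transcript closed the sum. All 65536 combinations of the 16 transcripts nearest to it in order of sequence identifier, 8 on each side, whose reads were not whole were tried. The smallest combination that closed the sum in 8 of 8 libraries added 6 transcripts, with a largest distance of 0.000472 reads. It was the only combination of its size, and each of the 4 combinations that closed the sum contained it. The added transcripts are XM_004944507.2 (4256 nt), XM_015293483.1 (4250 nt), XM_414299.5 (4383 nt), XR_001468758.1 (4192 nt), XR_001468759.1 (6765 nt) and XR_001468760.1 (4126 nt). No gene is assigned to them, and the search was made after the values had been seen.

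**Figure D1:**
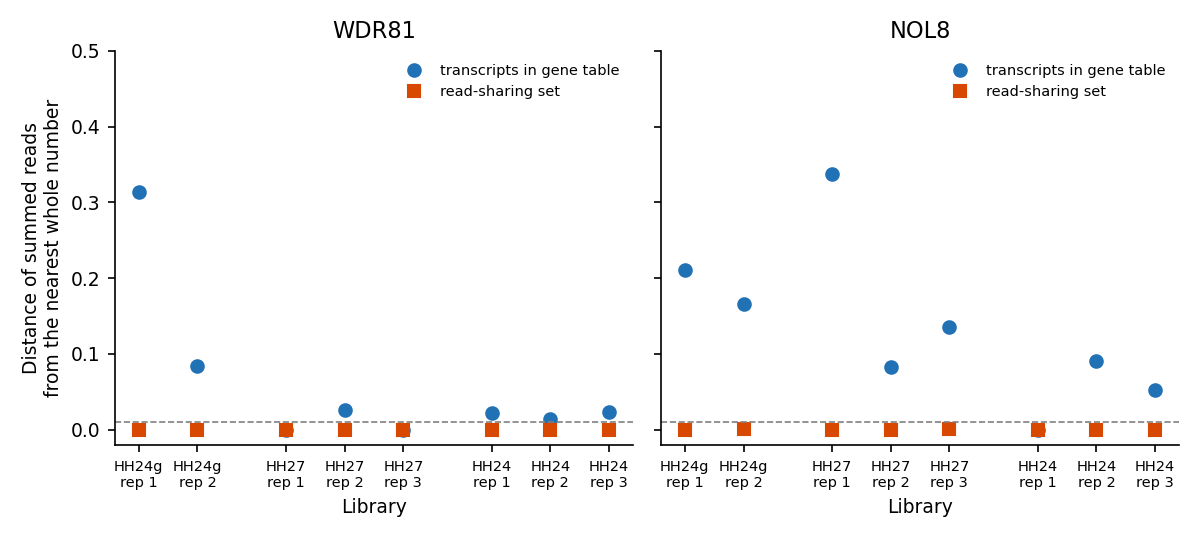
Distance of the summed estimated reads from the nearest whole number (vertical axis, in reads) in each of the 8 libraries, for the transcripts in the gene table (circles) and the read-sharing set (squares), with WDR81 left and NOL8 right and a dashed line at the tolerance of 0.01. The squares lie on 0 in all 8 libraries, while the circles lie above the line in 6 libraries for WDR81 and in 7 for NOL8.

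In HH24 nearly all reads of the WDR81 set lay on the added transcript. XM_015296036.1 held 53.3 and 0.0835 reads in HH24g, 0.00019, 0.0258 and 9.63e-05 reads in HH27, and 66.0, 8.99 and 53.0 reads in HH24. It took at least 99.8% of the reads of the set in every HH24 library, 38.9% in HH24g replicate 1, and 0.0525% or less in the 4 other libraries. HH24g replicate 1 lay between HH24 and the other libraries for this transcript, with 26.6 CPM beside 51.8 to 70.6 CPM in HH24, and the 2 grafts differed from each other.

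The remaining WDR81 transcripts also differed between libraries of 1 group. XM_415806.5 (7289 nt) held 0.0017 and 66.2 reads in HH24g, 145, 64.0 and 134 reads in HH27, and under 1 read in each HH24 library. It was the main WDR81 transcript of HH27, with 63.7% of the set or more in each of its libraries. XM_004946538.2 (7305 nt) held 83.7 and 57.8 reads in HH24g and under 1 read in every HH27 and HH24 library. XM_004946540.2 (7388 nt) held 0 and 35.0 reads in HH24g, 0, 0 and 27.9 reads in HH27, and under 1 read in each HH24 library. XM_004946539.2 (7276 nt) reached 48.4 reads in HH27 replicate 3 and stayed under 1 read in the 7 other libraries. HH24g replicate 2 and HH27 replicate 3, which are the deepest libraries, spread their reads over 3 transcripts each, while HH27 replicates 1 and 2 placed theirs on 1.

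**Figure D2:**
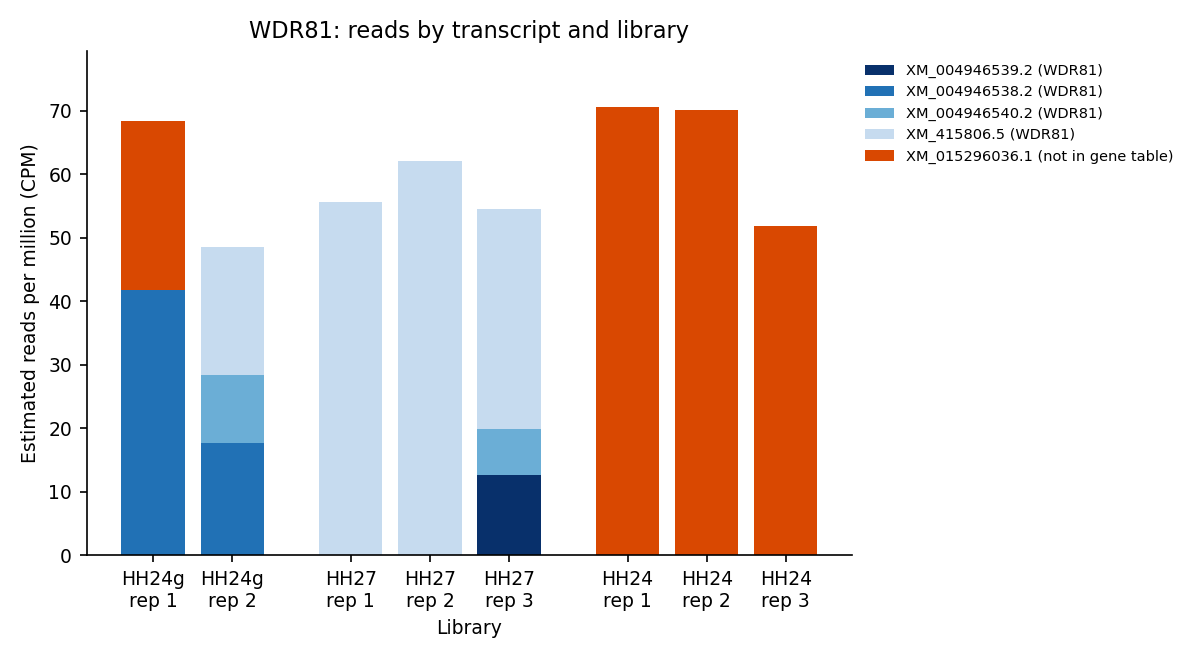
Estimated reads in CPM (vertical axis) on each transcript of the WDR81 read-sharing set, stacked in 1 bar per library, with transcripts of the gene table in blue and XM_015296036.1 in orange. The whole bars reach 48.6 to 70.6 CPM in all 3 groups, and the HH24 bars are almost wholly orange.

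At HH24 most reads of the NOL8 set also lay on added transcripts. These held 21.8% to 36.6% of the set in the HH24g and HH27 libraries too, unlike in most of those libraries for WDR81. The matched transcript took 73.6% and 78.2% of the set in HH24g, 63.4%, 71.9% and 68.0% in HH27, and 1.38e-08%, 13.9% and 5.13% in HH24. XM_004944507.2 held 7.53e-07 and 32.1 reads in HH24g, 67.7, 28.5 and 67.9 reads in HH27, and 70.8, 0 and 56.6 reads in HH24. This transcript carried 83.3% of the set in HH24 replicate 1 and 48.8% in replicate 3. XM_015293483.1 held under 1 read in every HH24g and HH27 library, and 0, 12.9 and 51.2 reads in HH24, or 86.1% of the set in replicate 2 and 44.1% in replicate 3. The 3 HH24 libraries therefore shared a low NOL8 transcript but not the transcript that held most reads of the set.

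The other 4 added transcripts held smaller parts. XR_001468760.1 held 29.3 and 0.0319 reads in HH24g, 14.8, 0 and 28.9 reads in HH27, and 11.7, 0 and 0 reads in HH24. XR_001468758.1 reached 43.3 reads in HH24g replicate 2 and 19.0 and 18.3 reads in HH27 replicates 1 and 3, and held under 1 read in the rest. XM_414299.5 held 22.5 reads in HH24g replicate 1 and 0 in the 7 other libraries. XR_001468759.1, the longest, held between 2.42 and 13.0 reads in the HH24g and HH27 libraries, and 2.51, 0 and 2.30 reads in HH24. None of these 4 separated the groups.

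**Figure D3:**
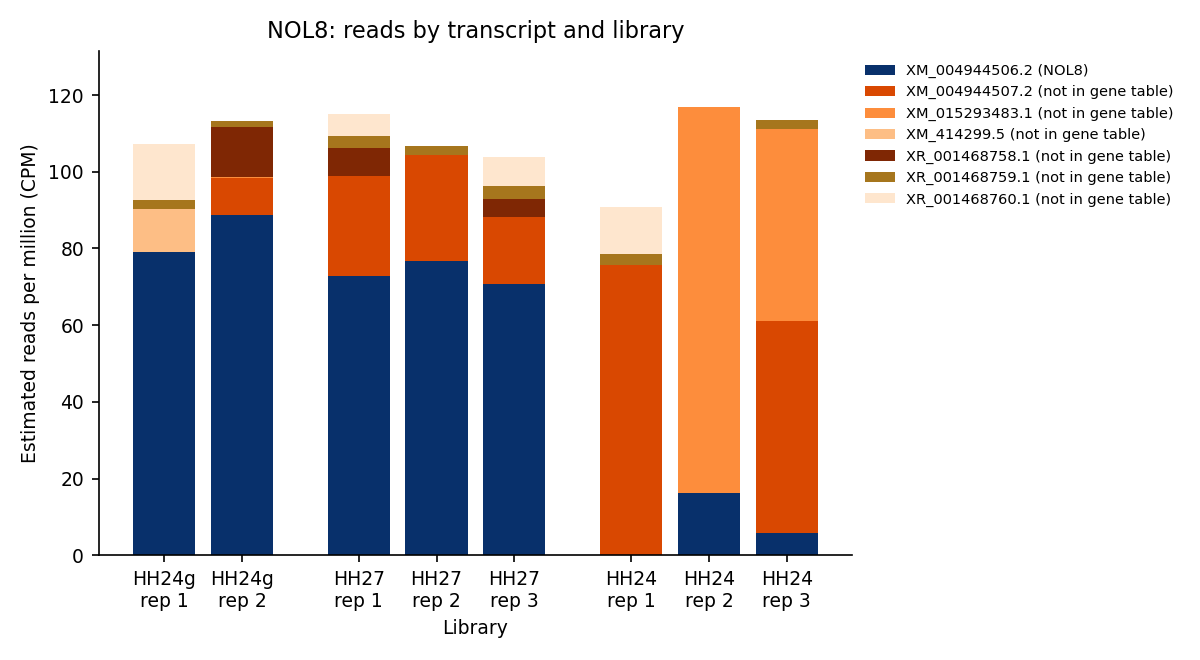
Estimated reads in CPM (vertical axis) on each transcript of the NOL8 read-sharing set, stacked in 1 bar per library, with the transcript of the gene table in dark blue and those outside it in orange and brown. The bars reach 90.9 to 117 CPM, and dark blue makes up most of each HH24g and HH27 bar but at most 13.9% of an HH24 bar.

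In CPM after TMM scaling, the sums over both read-sharing sets at HH24 fell within the range of the other groups or close to it. On other scales HH24 lay lower, as given below. The WDR81 set held 137 and 159 reads in HH24g, 145, 64 and 210 in HH27, and 66, 9 and 53 in HH24. This is 58.5 ± 14.0 CPM in HH24g (SD, n = 2), 57.4 ± 4.13 CPM in HH27 (SD, n = 3) and 64.2 ± 10.7 CPM in HH24 (SD, n = 3). On the log2 scale the WDR81 set differed from HH24 by -0.12 ± 0.21 (SE, 95% interval -0.60 to 0.36) in HH24g and by -0.12 ± 0.20 (SE, 95% interval -0.58 to 0.34) in HH27. Between HH24g and HH27 the difference was -0.00 ± 0.17 (SE, 95% interval -0.38 to 0.38). The libraries of all 3 groups overlapped.

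The NOL8 set held 215 and 371 reads in HH24g, 300, 110 and 400 in HH27, and 85, 15 and 116 in HH24. This is 110 ± 4.27 CPM in HH24g (SD, n = 2), 109 ± 5.74 CPM in HH27 (SD, n = 3) and 107 ± 14.1 CPM in HH24 (SD, n = 3). On the log2 scale it differed from HH24 by 0.10 ± 0.13 (SE, 95% interval -0.20 to 0.40) in HH24g and by 0.07 ± 0.12 (SE, 95% interval -0.21 to 0.35) in HH27, and HH24g from HH27 by 0.03 ± 0.11 (SE, 95% interval -0.21 to 0.27). The sets were put together after the values were seen, so these differences carry no test, and a gene-wide change smaller than the intervals is not addressed. By these sums, the near absence at HH24 held for the transcripts in the gene table and not for the sets.

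**Figure D4:**
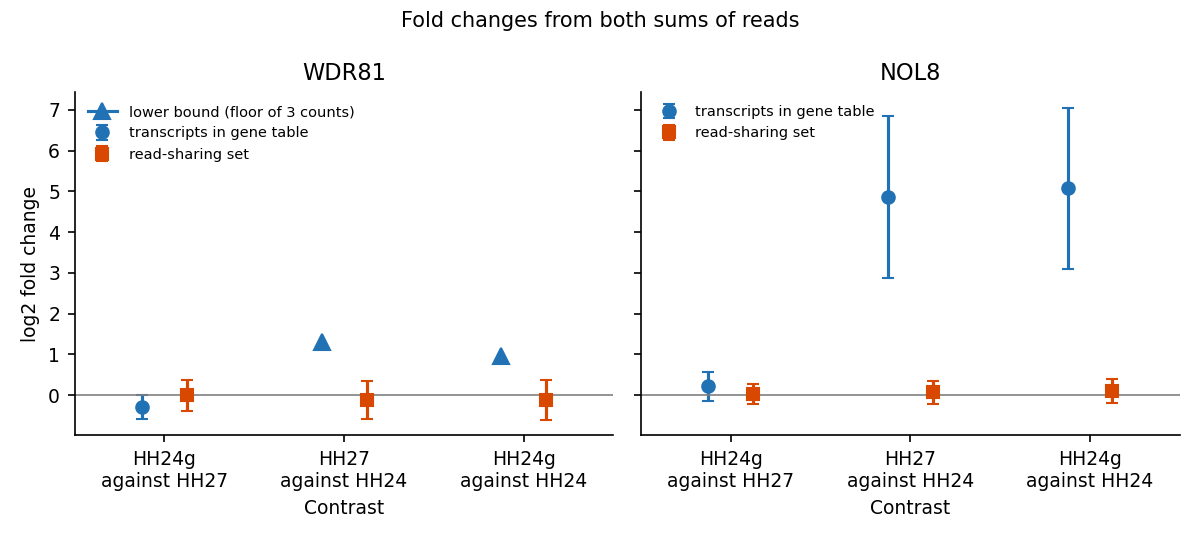
Log2 fold changes (vertical axis) of HH24g against HH27, HH27 against HH24 and HH24g against HH24, from the transcripts in the gene table (circles, with triangles for the lower bounds of WDR81) and from the read-sharing sets (squares), with bars for 95% intervals. The squares lie between -0.12 and 0.10, while the circles of NOL8 against HH24 lie at 4.86 and 5.08.

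The scale of the values matters for these sums. In TPM the WDR81 set had 9.57 and 5.41 in HH24g, 7.01, 5.55 and 6.93 in HH27, and 3.35, 0.222 and 3.41 in HH24, so that HH24 lay below the others. The NOL8 set had 25.9 and 22.0 TPM in HH24g, 25.0, 16.5 and 22.8 TPM in HH27, and 7.37, 0.637 and 12.8 TPM in HH24, which was again the lowest group. TPM are shares of all transcripts, and the log2 ratio of mean TPM in HH27 over HH24 had a median of 1.59 across 9022 genes. That ratio was 1.48 for the WDR81 set and 1.63 for the NOL8 set. Library size alone, meaning the reads of a library on the genes tested, was also used as the scale, without TMM. With it, HH27 against HH24 had a median of 0.49 over all genes tested, against 0.03 with TMM, a shift of 0.47. On that scale the difference was 0.32 ± 0.30 (SE) for the WDR81 set and 0.54 ± 0.28 (SE) for the NOL8 set. Both sets thus lay within 1 SE of the median of all genes.

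Within the WDR81 transcripts of the gene table, a change in their proportions between HH24g and HH27 was tested over 2886 genes with more than 1 transcript. The F statistic over 3 WDR81 transcripts was 7.94 (adjusted p = 0.115, limma diffSplice with Benjamini-Hochberg adjustment), so it was not called, and 30 genes were. By transcript the adjusted p was 0.0995 for XM_004946538.2 and 0.113 for XM_415806.5 (limma diffSplice with Benjamini-Hochberg adjustment over transcripts), and no fold is given, since each was near 0 in at least 1 library. The call depended on the setting. The gene was called with no filter on low reads (adjusted p = 0.012, limma), without HH24g replicate 1 (adjusted p = 0.022, limma) and without HH24g replicate 2 (adjusted p = 0.0231, limma). The test took rounded estimated reads as counts, so its p-values do not cover error in how reads were shared among similar transcripts. It also does not see XM_015296036.1, which held 38.9% of the set in HH24g replicate 1. In the main setting the filter on low reads also left out XM_004946539.2, which held 23.1% of the set in HH27 replicate 3. For NOL8 the test could not be fitted, with 1 transcript in the gene table.

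Other genes showed the same profile as WDR81 in their matched transcripts. Of 5526 genes at 20 CPM or more in every HH24g and HH27 library, 5 were at 0 in every HH24 library, and 0 genes had the mirror pattern, at 20 CPM or more in every HH24 library and 0 elsewhere. The mirror pattern asks for 0 in more libraries, most of them deeper, so the counts are not on equal terms. Besides WDR81 the 5 genes at 0 in HH24 were SRSF2, a splicing factor, COL4A2, a collagen of basement membranes, FAM45A and COBLL1. SRSF2 had a mean of 55.3 CPM in HH24g and 55.0 CPM in HH27, and COL4A2 of 34.2 CPM in HH24g and 53.8 CPM in HH27. FAM45A had a mean of 51.3 CPM in HH24g and 48.1 CPM in HH27, and COBLL1 of 29.8 CPM in HH24g and 41.8 CPM in HH27. In all 5 the gene's reads failed to sum to a whole number in at least 1 library, as was so for 52.1% of the 9062 genes tested. No read-sharing set was sought for the genes other than WDR81, so their 0 at HH24 holds for matched transcripts only. Counted by transcript, 20 had the pattern and 1 the mirror pattern, but 32 and 11 without HH24 replicate 2, the library with the fewest reads on matched genes. Of the 97 genes called in HH27 against HH24, 45.4% had sums that were not whole, and of the 155 called in HH24g against HH27, 42.6%.

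The genes most like WDR81 over the 8 libraries, by Pearson's r of log2 CPM, were KLHL8 (0.999), COBLL1 (0.997), COL4A2 (0.997), KCNH5 (0.995) and KYAT3 (0.995). All 5 had a mean of 0 CPM in HH24, so r rested on the gap between HH24 and the rest. KCNH5, a potassium channel subunit, had whole sums in 8 of 8 libraries, with a mean of 7.67 CPM in HH24g, 10.4 CPM in HH27 and 0 CPM in HH24. For NOL8 the nearest were MED26 (0.975), a subunit of the Mediator complex, PDP2 (0.974), GABPA (0.964), NR2C2AP (0.958) and ATP9B (0.954). Their means at HH24 lay closer to the other groups than that of the NOL8 transcript. GABPA, an ETS transcription factor, had a mean of 263 CPM in HH24g, 241 CPM in HH27 and 130 CPM in HH24. Sums were whole in 0 of 8 libraries for GABPA and MED26, 1 for ATP9B, 4 for PDP2 and 8 for NR2C2AP. Among the genes most like WDR81 they were whole in 4 of 8 for KLHL8, COL4A2 and KYAT3 and in 5 for COBLL1. No read-sharing set was sought for any of these genes.

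Partners of WDR81 were present in all groups. Of 23 genes listed for endosomal phosphoinositide and Rab machinery 20 were tested, and 0 were called higher or lower in any of the 3 contrasts by limma voom, edgeR or DESeq2. At an unadjusted p under 0.05 (limma voom) 2 passed in HH24g against HH27, 2 in HH27 against HH24 and 1 in HH24g against HH24, where 17.2%, 15.3% and 11.3% of all genes did, so each share was below that of all genes. The medians on the log2 scale were -0.03 (HH24g against HH27), 0.02 (HH27 against HH24) and 0.06 (HH24g against HH24), beside -0.01, 0.03 and 0.02 over all genes. WDR91, the partner of WDR81, had 36.8 ± 1.94 CPM in HH24g (SD, n = 2), 43.3 ± 7.91 CPM in HH27 (SD, n = 3) and 42.0 ± 14.5 CPM in HH24 (SD, n = 3). PIK3C3, the catalytic subunit of the kinase, had 77.5 CPM in HH24g, 71.5 CPM in HH27 and 68.3 CPM in HH24. BECN1, a subunit of the same complex, had means of 53.0 CPM in HH24g, 53.7 CPM in HH27 and 44.3 CPM in HH24. RAB7A, the GTPase of late endosomes, had means of 125 CPM in HH24g, 139 CPM in HH27 and 166 CPM in HH24, and SQSTM1 of 25.2 CPM in HH24g, 27.4 CPM in HH27 and 20.1 CPM in HH24. EEA1, a tether of early endosomes, had an adjusted p of 0.00898 (limma voom, Benjamini-Hochberg) in HH24g against HH27, at a log2 fold change of 0.51, below the limit for a call.

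Of 8 other genes with a BEACH domain 5 were tested, and 0 were called by limma voom, edgeR or DESeq2. At an unadjusted p under 0.05 (limma voom) 2 (40%) passed in HH24g against HH27, 1 (20%) in HH27 against HH24 and 2 (40%) in HH24g against HH24. Over all genes the shares were 17.2%, 15.3% and 11.3%. The medians of the 5 genes on the log2 scale were 1.00 in HH24g against HH27, -0.07 in HH27 against HH24 and 0.93 in HH24g against HH24, beside -0.01, 0.03 and 0.02 over all genes. In HH24g against HH24 0 of the 5 lay below 0, beside 47.5% of all genes. The 6 BEACH genes matched summed to 674.3 to 700.5 CPM in HH24g, 412.7 to 498.6 CPM in HH27 and 335.2 to 483.2 CPM in HH24. HH24g lay above HH27 without overlap, as did 16.3% of all genes tested. NBEA had a log2 fold change of 0.76 in HH24g against HH27 (adjusted p = 0.0172, limma voom, Benjamini-Hochberg), below the limit for a call, and LYST one of 4.34 (adjusted p = 0.325, limma voom, Benjamini-Hochberg).

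For NOL8, 38 of 47 genes of nucleolar ribosome assembly were tested, and 0 were called in any of the 3 contrasts by limma voom, edgeR or DESeq2. At an unadjusted p under 0.05 (limma voom) 5 (13.2%) passed in HH24g against HH27, 12 (31.6%) in HH27 against HH24 and 11 (28.9%) in HH24g against HH24, beside 17.2%, 15.3% and 11.3% of all genes. Their median was 0.04 in HH24g against HH27, -0.26 in HH27 against HH24 and -0.23 in HH24g against HH24, and 34 of 38 lay below 0 in HH27 against HH24, beside 47.1% of all genes. The median over all genes was 0.03 in that contrast, and scaling by library size alone shifts it by 0.47. The sign of -0.26 therefore depends on the scaling and is read only relative to all genes. The list was not tested as a set. NPM1, a histone chaperone of the nucleolus, had 2714 ± 49.6 CPM in HH24g (SD, n = 2), 2098 ± 105 CPM in HH27 (SD, n = 3) and 3015 ± 424 CPM in HH24 (SD, n = 3). Its log2 fold change was 0.37 in HH24g against HH27 (adjusted p = 0.0355, limma voom, Benjamini-Hochberg) and -0.46 in HH27 against HH24 (adjusted p = 0.0293, limma voom, Benjamini-Hochberg). Nucleolin (NCL) had means of 747 CPM in HH24g, 761 CPM in HH27 and 1424 CPM in HH24. Its HH24 libraries had 1012, 2308 and 953 CPM, so the HH24 mean was raised by HH24 replicate 2. Every HH24 library lay above the 722 to 784 CPM of the HH24g and HH27 libraries, as for 5.25% of all genes tested. DDX47, an RNA helicase that binds NOL8 in human cells, had means of 42.4 CPM in HH24g, 44.5 CPM in HH27 and 60.1 CPM in HH24, and NIP7 of 54.8 CPM in HH24g, 57.3 CPM in HH27 and 55.2 CPM in HH24. In pieces of tissue, fewer cells of a type and less RNA per cell cannot be told apart.

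The neighbours of both genes in the RefSeq annotation gave little. Next to NOL8, OGN, a proteoglycan of connective tissue, had 68.9 and 89.2 CPM in HH24g, 29.9, 33.0 and 59.7 CPM in HH27, and 28.9, 46.8 and 42.1 CPM in HH24. OGN was not called, at 0.92 ± 0.27 (SE) in HH24g against HH27 (adjusted p = 0.120, limma voom, Benjamini-Hochberg) and 0.22 ± 0.40 (SE) in HH27 against HH24 (adjusted p = 0.837, limma voom, Benjamini-Hochberg). OMD beside it stayed at or under 7.80 CPM. Near WDR81, MIR22 had 0 reads in all libraries and SMYD4 at most 7.66 CPM, and neither was tested.

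Other cell types were followed by marker lists. The 6 erythroid genes matched, of 13 listed, summed to 549 to 1022 CPM in HH24g, 302 to 1624 CPM in HH27 and 2750 to 3323 CPM in HH24, without overlap of HH24 with the rest, where 5.25% of all genes tested were higher in HH24 without overlap. By limma voom, edgeR or DESeq2 0 of 5 tested were called in any contrast, with 4 at an unadjusted p under 0.05 (limma voom) in each contrast with HH24, beside 15.3% of all genes in HH27 against HH24 and 11.3% in HH24g against HH24, and 0 in HH24g against HH27. The globin HBBA lay the other way, at 0.53 in HH27 against HH24 and 3.94 in HH24g against HH24 on the log2 scale. Their part in the profile of WDR81 and NOL8 was not tested. The 10 ectodermal genes matched, of 12 listed, summed to 390 to 475 CPM in HH24g, 448 to 572 CPM in HH27 and 351 to 415 CPM in HH24. Of the myogenic list 5 of 7 genes were matched and their sum was at most 3.91 CPM in any library. The 7 endothelial genes matched summed to 221 to 241 CPM in HH24g, 161 to 185 CPM in HH27 and 153 to 234 CPM in HH24. The 5 leukocyte genes matched summed to 55.3 to 55.4 CPM in HH24g, 35.9 to 42.5 CPM in HH27 and 39.1 to 54.6 CPM in HH24. For both sums HH24g lay above HH27 without overlap, as did 16.3% of all genes tested. The 5 neural crest and glial genes matched summed to 8.86 to 14.5 CPM in HH24g, 15.3 to 21.6 CPM in HH27 and 9.78 to 23.4 CPM in HH24. By limma voom, edgeR or DESeq2 0 tested genes of the ectodermal, endothelial, leukocyte and neural crest lists were called in any contrast. At an unadjusted p under 0.05 (limma voom), 3 of 8 ectodermal (37.5%) and 2 of 7 endothelial genes (28.6%) passed in HH24g against HH27. So did 2 of 4 leukocyte (50%) and 0 of 2 neural crest genes, beside 17.2% of all genes. The counts of these lists were no higher in the other contrasts. Their part in the profile of WDR81 and NOL8 was not tested. Of the 16 distal limb genes, limma voom called 1 higher and 3 lower in HH24g against HH27, where 1.71% of all genes were called. In HH27 against HH24 it called 2 higher and 3 lower, where 1.07% of all genes were called. At an unadjusted p under 0.05 (limma voom) 15 and 10 passed in these contrasts, beside 17.2% and 15.3% of all genes. In HH24g against HH24 limma voom and edgeR called 0 and DESeq2 3, beside 1, 14 and 120 of all 9062 genes. There 9 were at an unadjusted p under 0.05 (limma voom), beside 11.3% of all genes.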

How the data were processed

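RNA of 8 libraries (Trizol, stranded total RNA after ribosomal depletion) was analysed from transcript tables in which the authors deposited estimated counts, TPM and lengths (in nt) per RefSeq transcript. The submitters' processing notes name HISAT2 2.0.2, Salmon, limma and galGal4, and the transcript release is not given in the sources used here. The deposited TPM served as description, without a test. The study made 3 replicates of each condition and left out 1 HH24 and 1 HH24g library, which it does not name. The series holds 3 HH24 and 2 HH24g libraries, so the HH24g library left out may not be among them. All 8 libraries were used. Accessions were matched to the RefSeq table of GRCg7b for names and neighbours, and no coordinates are given. Estimated counts were summed per gene and rounded. The filter filterByExpr (minimum count 10, minimum total 15) kept 9062 genes, which were fitted with TMM and limma voom, 1 mean per group. Read-sharing sets were fitted in place of both genes. A gene was called at an adjusted p under 0.05 and an absolute log2 fold change over 1. Transcript proportions were tested with diffSplice on rounded counts. The correlation of log2 CPM used a prior count of 2. The genes named are both members, the 5 most like each, 2 neighbours on each side, genes at 0 in HH24 and chosen list members. The members, the 10 gene lists and the tests were chosen with earlier results of these data known. The fit was tested on simulated data with 200 changed genes. The fits used limma 3.58.1 in R 4.3.3, the alternatives edgeR 4.0.16 and DESeq2 1.42.0, and tables and figures pandas 2.3.3 and matplotlib 3.10.9 in Python 3.11.15.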

Additional observations from a re-analysis of the deposited data

Results flagged for a closer look

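Reads appeared on transcripts that the comparison of genes does not use, above the 3 reads that a count of 0 allows, and each is given at its highest library. In the WDR81 set XM_015296036.1 reached 66.0 reads in HH24 replicate 1. In the NOL8 set XM_004944507.2 reached 70.8 reads in HH24 replicate 1, XM_015293483.1 reached 51.2 reads in HH24 replicate 3, XR_001468758.1 reached 43.3 reads in HH24g replicate 2, XR_001468760.1 reached 29.3 reads in HH24g replicate 1, XM_414299.5 reached 22.5 reads in HH24g replicate 1, and XR_001468759.1 reached 13.0 reads in HH27 replicate 3.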

How the results depend on the processing

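Neither WDR81 nor NOL8 was called in HH24g against HH27 under any of the 16 alternatives run for each (adjusted p from 0.280 to 1.00 for WDR81 and from 0.380 to 1.00 for NOL8, by limma, edgeR or DESeq2), and the direction of each was kept. The log2 of the lower bound for WDR81 in HH27 against HH24 was 1.30, and 1.42 with unmatched transcripts as features, 2.69 with library size only and 1.25 to 4.15 on leaving out 1 library. In HH24g against HH24 that bound was 0.95, and 1.10 with unmatched transcripts as features, 2.35 with library size only and 0.84 to 3.82 on leaving out 1 library. NOL8 lay between 3.40 and 5.77 in HH27 against HH24 and between 3.62 and 5.99 in HH24g against HH24 on leaving out 1 library. For the WDR81 set, leaving out 1 library gave -0.21 to 0.28 in HH24g against HH27, -0.35 to 0.058 in HH27 against HH24 and -0.35 to 0.17 in HH24g against HH24. For the NOL8 set it gave -0.018 to 0.076, -0.078 to 0.19 and -0.049 to 0.21 in the same contrasts. Library size only, chosen after seeing the data as were the sets, gave 0.32 in HH27 against HH24 and 0.34 in HH24g against HH24 for the WDR81 set, and 0.54 and 0.56 for the NOL8 set, beside a median of 0.49 and 0.50 over all genes. Over all genes, HH24g against HH27 had 98 calls by edgeR and 154 by DESeq2, HH27 against HH24 had 108 and 212, and HH24g against HH24 had 14 and 120, where limma voom had 155, 97 and 1. Library size only called 24 genes in HH24g against HH27 and 15 in HH27 against HH24. The adjusted p of WDR81 transcript usage (limma diffSplice) was 0.115, and 0.012 with no filter on low counts and 0.022 to 0.305 on leaving out 1 library. Where 1 HH24g library was left, it was assumed to vary like the other groups. Genes at 0 in HH24 numbered 5, but 10 at a limit of 10 CPM and 0 at 50 CPM.

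Libraries with the same replicate number did not deviate together (r from -0.03 to 0.04 over 7 pairs), so the numbers were not taken as pairs. The 2 HH24g libraries deviate from their own mean in opposite ways, so their r values mirror each other and the check is weak. HH27 came from the hosts of the grafts, and the labels do not link grafts to hosts. The p-values of HH24g against HH27 therefore leave out any such pairing. With the replicate number as a block, WDR81 in HH24g against HH27 was -0.38 (adjusted p = 0.325, limma) and NOL8 0.18 (adjusted p = 0.744, limma), the usage of WDR81 had an adjusted p of 0.0862 (limma), and NOL8 was 4.05 in HH27 against HH24 and 4.22 in HH24g against HH24.

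HH24 replicate 2, with few reads on matched genes, limits the bounds and the precision at HH24. The bound for WDR81 against HH24 was not computed with DESeq2.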
